A study of Danio rerio with 6 samples.

Results

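Forkhead transcription factors were followed in RNA-seq of whole zebrafish embryos that lack maternal and zygotic smad4a. They were taken as every gene whose symbol, ignoring case, begins with fox, then 1 letter and a digit. foxi1 was left out, as were the foxred genes, whose name begins alike. The rule found 61 of the 32266 genes listed, in 18 subfamilies from foxa to foxr, and it used no measured value. Of these, 13 have a human-style symbol that does not say which zebrafish copy they are, and such genes are given here in capitals with their identifier. The 6 libraries were made at 50% epiboly, the start of gastrulation, from 25 pooled embryos each. The 3 MZsmad4a libraries came from embryos of homozygous mutant mothers and fathers, which carry smad4aΔ14, a CRISPR/Cas9 deletion that shifts the reading frame in the linker region of Smad4a. The 3 WT libraries came from embryos with intact smad4a, and both genotypes are of the Tubingen (TU) strain. Because whole embryos were pooled, fewer cells expressing a gene cannot be told apart from less RNA per cell.

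Forkhead proteins share a winged-helix DNA-binding domain, and some family members can bind closed chromatin and open it for other factors. In the early embryo they act at several points of germ layer formation. Foxh1 is the DNA-binding partner through which phosphorylated Smad2 and Smad4 reach Nodal target genes, Foxa factors pattern axial mesoderm and endoderm, and other subfamilies act later in neural plate, paraxial mesoderm, epidermis and ciliated cells. Smad4 is the shared partner of the receptor-activated Smads of both Nodal and BMP signaling, so forkhead genes stand on both sides of the pathway that the mutation affects, as partners and as downstream genes.

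The libraries held between 18138714 and 19900859 expected counts in MZsmad4a and between 9807865 and 20833491 in WT, where WT replicate 1 was the shallowest. smad4a itself was at 13.1, 15.3 and 14.6 CPM (counts scaled to library size by edgeR's TMM method) in MZsmad4a libraries, against 54.7, 62.3 and 60.8 CPM in WT libraries, so each library lay on the side of its label. The defining markers of the stage were present. Of the margin symbols listed, 3 were found, and wnt8a names 2 of the 4 genes. The summed CPM of these 4 genes was 681 to 921 in MZsmad4a and 1076 to 1267 in WT. None of the 4 passed an adjusted p of 0.01 in edgeR (3 at an unadjusted p under 0.05), and DESeq2 called 2 lower and 1 higher. The log2 fold changes were -0.57 for tbxta and -0.62 for tbx16, against 0.41 and 0.56 for the wnt8a genes. The summed CPM of 7 enveloping layer genes was 9118 to 10409 in MZsmad4a and 8362 to 9361 in WT. The summed CPM of 5 markers of later stages was 0.828 to 1.44 in MZsmad4a and 1.13 to 1.58 in WT.

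At 50% epiboly the forkhead family was dominated by a few genes. foxa3, foxh1 and foxd5 were the 3 highest by mean TPM (a scale that corrects for transcript length and gives each library the same total) in both genotypes, with foxa3 first in MZsmad4a and foxh1 first in WT. Together these 3 genes held 47.9 to 54.0% of all forkhead TPM in MZsmad4a libraries and 53.3 to 59.4% in WT libraries. They were followed by foxd3, a factor of dorsal mesoderm and later neural crest, and by FOXB1 (ENSDARG00000089042), FOXC1 (ENSDARG00000091481) and both FOXK2 genes. Of the 61 genes, 30 passed the filter on low counts and could be tested, and 25 of these had a mean of at least 1 TPM and 15 at least 10 TPM. The other 31 comprised 8 with no count in any library and 23 whose highest count in a single library was 13. The order within the family moved for FOXB1 (ENSDARG00000089042), which ranked 4 in MZsmad4a and 11 in WT, and for foxj1a, which ranked 40 in MZsmad4a and 21 in WT. As a share of forkhead TPM, FOXB1 (ENSDARG00000089042) held 7.24 ± 1.28% in MZsmad4a and 2.95 ± 0.60% in WT (SD, n = 3 each), with every MZsmad4a library above every WT library.

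**Figure D1:**
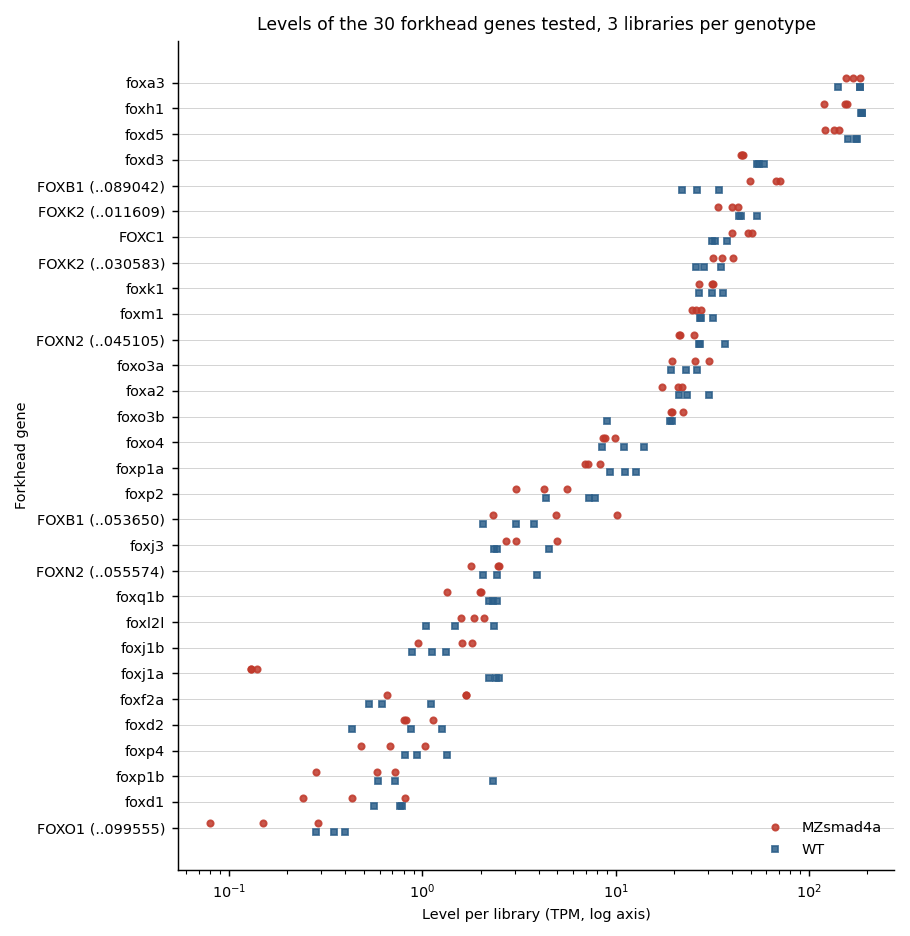
Level of each of the 30 forkhead genes tested, in TPM on a log axis, ordered by the mean over all libraries, with 3 MZsmad4a libraries (circles) above 3 WT libraries (squares) for each gene. foxa3, foxh1 and foxd5 stand highest in both genotypes, and foxj1a shows the widest gap, at 0.13 to 0.14 TPM in MZsmad4a and 2.22 to 2.48 TPM in WT.

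Summed over all 61 genes, forkhead transcripts came to 858, 888 and 854 TPM in MZsmad4a libraries, against 950.2, 922 and 919 TPM in WT libraries. All 3 MZsmad4a libraries lay below all 3 WT libraries, with means of 867 ± 18.7 and 930.5 ± 17.2 TPM (SD, n = 3 each). The difference was -63.9 TPM (two-sided exact permutation test, p = 0.1, the smallest p that 3 against 3 libraries can give). As a log2 ratio of the means it was -0.10. In fits of TPM by limma, the median log2 fold change of all genes tested was -0.093 (TPM + 1) and -0.11 (TPM + 0.1). In the same fits the median of the forkhead genes tested was -0.20 (TPM + 1) and -0.27 (TPM + 0.1). The ratio of the totals is weighted towards the most abundant genes, so it is not the same measure as these medians. The sum of TMM-scaled CPM gave 1270 ± 23.6 in MZsmad4a and 1263 ± 52.9 in WT, a difference of +6.75 (exact permutation test, p = 1), so the direction of the total depends on the scaling.

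Between MZsmad4a and WT embryos, 1 of the 30 forkhead genes tested was called at an adjusted p under 0.01. It was foxj1a, which fell, and the background was 0.712% of all 15720 genes tested, or 0.490% lower and 0.223% higher. No forkhead gene was called higher at that threshold. The p-values came from the quasi-likelihood test of edgeR and were adjusted by the Benjamini-Hochberg method over all genes tested, and are given from here on as edgeR adjusted p. At an unadjusted p under 0.05 there were 7 forkhead genes, against a background of 17.5%. DESeq2 called 3, against 4.12% of all genes, or 339 lower and 309 higher. At an adjusted p under 0.05, FOXB1 (ENSDARG00000089042) joined foxj1a, which makes 2 genes against 2.93% of all genes. For 11 of the 30 genes the MZsmad4a and WT libraries did not overlap in CPM, a share of 36.7% against a background of 23.6%. In MZsmad4a, 7 of the 11 were lower (background 11.9%) and 4 were higher (background 11.7%). Of the 11, foxo3b, foxp4, foxp1b and FOXK2 (ENSDARG00000030583) overlapped in TPM. The reverse held for FOXK2 (ENSDARG00000011609), FOXN2 (ENSDARG00000045105) and foxq1b, which overlapped in CPM but not in TPM. The median log2 fold change was -0.17 over the 30 forkhead genes and -0.01 over all genes, and 17 of the 30 lay below 0, where 51% of all genes did. The forkhead median ran between -0.20 (without WT replicate 3) and -0.069 (without WT replicate 1) with a library left out. Each library is a replicate pool of embryos. The p-values set the difference between genotypes against the spread within them, as seen in these 6 libraries.

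**Figure D2:**
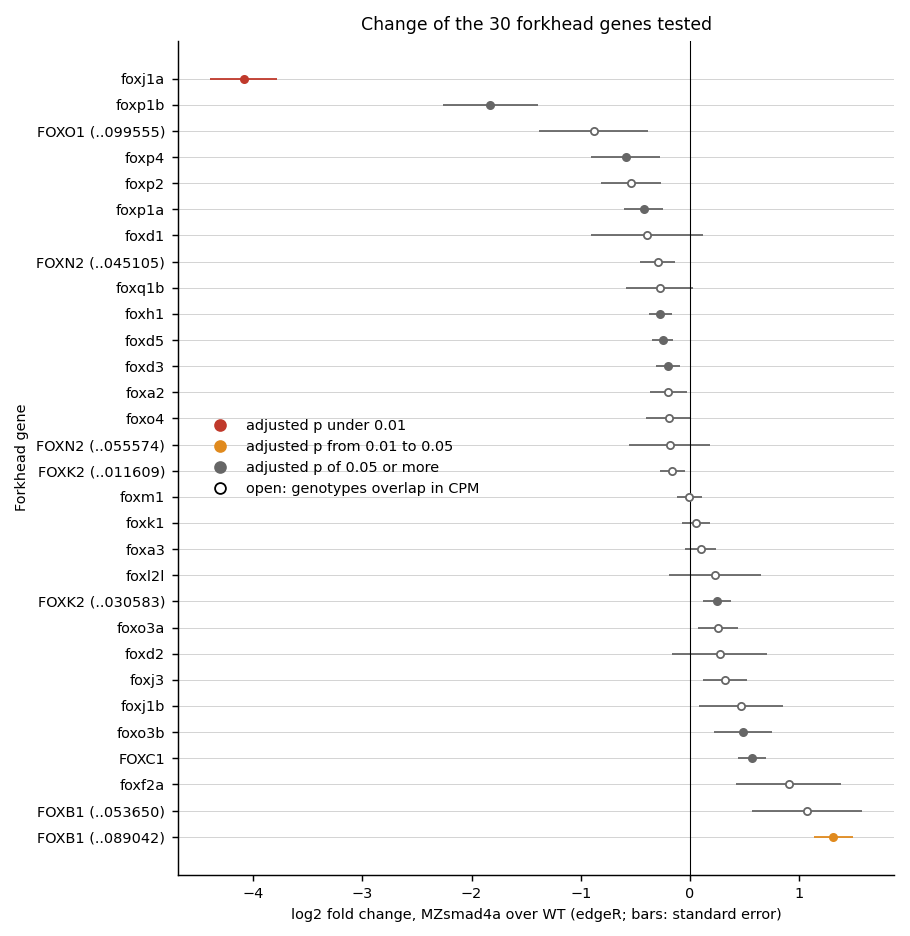
Log2 fold change of MZsmad4a over WT for each of the 30 forkhead genes tested, from edgeR's quasi-likelihood fit, with the standard error as a bar. Filled points mark the 11 genes whose genotypes do not overlap in CPM, red marks foxj1a at -4.09, the one gene past an adjusted p of 0.01, and orange marks FOXB1 (ENSDARG00000089042) at 1.31.

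foxj1a, the master regulator of motile cilia, showed the largest change of the 30 genes tested. In zebrafish gastrulae it is known from the dorsal forerunner cells, which later line the ciliated Kupffer's vesicle. It had 0.231, 0.276 and 0.315 CPM in MZsmad4a libraries, against 4.72, 5.06 and 4.59 CPM in WT libraries. The groups lay far apart, and within each genotype the libraries were close to each other. The level was 0.274 ± 0.042 CPM in MZsmad4a and 4.79 ± 0.245 CPM in WT (SD, n = 3 each), 17-fold lower in MZsmad4a. The log2 fold change was -4.09 (standard error, SE, 0.31, edgeR adjusted p = 0.000777). This rested on 4, 5 and 6 counts in MZsmad4a libraries and on 50, 106 and 84 counts in WT libraries, all above the 3 counts taken as the least that the depth can show. Leaving out each library in turn gave -4.20 to -3.98, with the call kept each time. A fit that also included the replicate number gave -4.09, with an edgeR adjusted p of 0.0102, just outside the threshold of 0.01.

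Its duplicate foxj1b, which also drives motile ciliogenesis in zebrafish, was not called. foxj1b had 2.37, 2.04 and 1.05 CPM in MZsmad4a libraries, against 1.51, 1.10 and 1.36 CPM in WT libraries, and the groups overlapped. Its log2 fold change was 0.47 (95% interval -0.28 to 1.22, edgeR adjusted p = 0.594). foxj1a was thus the more abundant copy in all 3 WT libraries and the less abundant in all 3 MZsmad4a libraries. Of 7 ciliary genes found by symbol, among them the Rfx factors and axonemal genes that Foxj1 is known to act with or on, 3 could be tested and none was called by edgeR or DESeq2, with 1 at an unadjusted p under 0.05. Their median log2 fold change was 0.16, with values between -0.16 and 2.01, against -0.01 over all genes. Most structural cilia genes of the list were near the limit of detection in both genotypes.

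**Figure D3:**
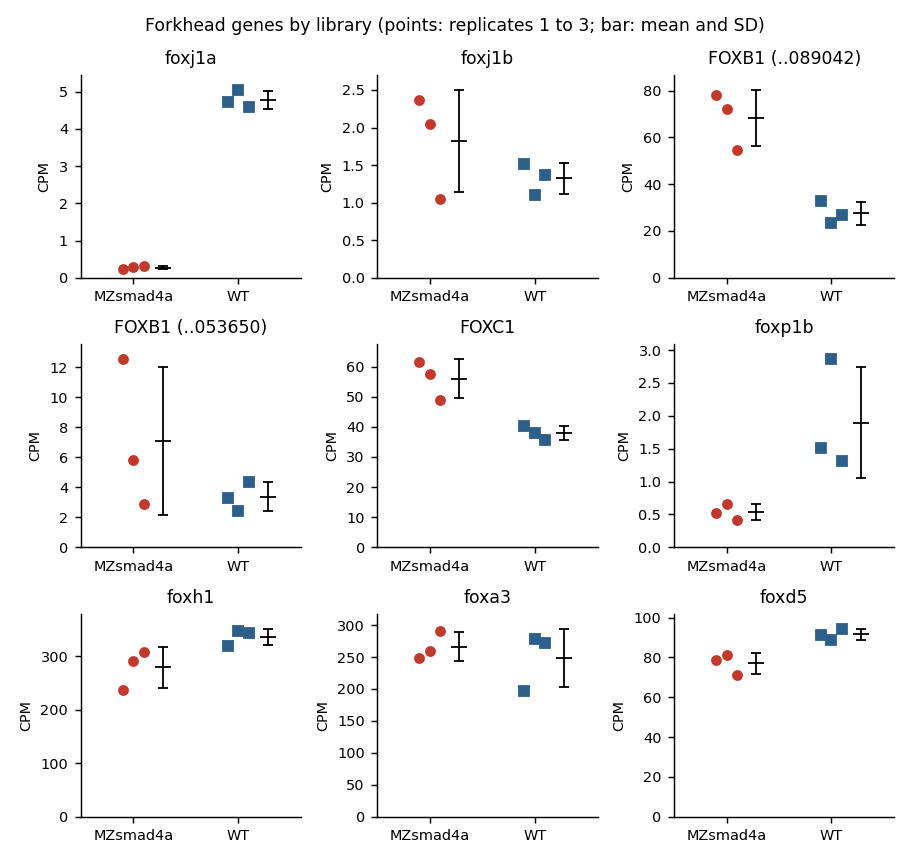
Level of 9 forkhead genes in each library, in CPM on linear axes from 0, with MZsmad4a (circles) left of WT (squares) and the mean and SD (n = 3) beside each group. foxj1a lies at 0.231 to 0.315 CPM in MZsmad4a and 4.59 to 5.06 CPM in WT, while foxj1b overlaps. FOXB1 (ENSDARG00000089042) and FOXC1 are higher in every MZsmad4a library, and foxh1 and foxd5 lower.

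FOXB1 (ENSDARG00000089042) had a higher level in every MZsmad4a library than in any WT library. Foxb1 is known as an early marker of the neural plate, from which it extends along the neural tube. The gene had 78.0, 72.2 and 54.7 CPM in MZsmad4a libraries, against 32.8, 23.2 and 26.8 CPM in WT libraries. The smallest gap was between MZsmad4a replicate 3 and WT replicate 1. The level was 2.48-fold higher, a log2 fold change of 1.31 (SE 0.18, edgeR adjusted p = 0.0105), just outside the threshold of 0.01. DESeq2 gave an adjusted p of 5.69e-09 with a log2 fold change of 1.32, and edgeR without the filter on low counts gave 0.00113, so the call depends on the test. Leaving out each library in turn gave 1.199 to 1.46.

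The other gene of that name, FOXB1 (ENSDARG00000053650), was lower and more variable. It had 12.5, 5.82 and 2.88 CPM in MZsmad4a libraries, against 3.30, 2.42 and 4.35 CPM in WT libraries. MZsmad4a replicate 1 stood apart from the rest, and the groups overlapped. The log2 fold change was 1.07 (SE 0.50, edgeR adjusted p = 0.327), and it was 0.37 without MZsmad4a replicate 1. Its expected counts were not whole numbers in 5 of the 6 libraries, which means that some reads were shared out by estimation between similar sequences, so its level is uncertain. The FOXB1 pair is one of 5 such pairs under one name, and neither copy letter could be assigned from the table of symbols.

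The other neural plate genes were listed for comparison. Of 13 symbols listed, 8 were found and 7 could be tested. None of the 7 was called at 0.01 by edgeR in either direction, with 4 at an unadjusted p under 0.05, while DESeq2 called 2 higher and 1 lower. Their median log2 fold change was 0.20 and single values ran between -1.66 and 0.92. At the low end stood six3b, a homeobox gene of the anterior neural plate, with 0.981, 3.20 and 3.47 CPM in MZsmad4a libraries, against 9.90, 8.11 and 6.33 CPM in WT libraries (edgeR adjusted p = 0.0919). At the high end stood otx2a, a homeobox gene of forebrain and midbrain, with 120.9, 108 and 91.1 CPM in MZsmad4a libraries, against 53.4, 62.8 and 52.6 CPM in WT libraries (edgeR adjusted p = 0.0123).

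FOXC1 (ENSDARG00000091481) belongs to the Foxc factors, which act in paraxial mesoderm and somite formation. It had 61.7, 57.4 and 48.9 CPM in MZsmad4a libraries, against 40.2, 37.8 and 35.6 CPM in WT libraries, with no overlap. The log2 fold change was 0.57 (SE 0.13, edgeR adjusted p = 0.0600), and DESeq2 gave an adjusted p of 0.00358. The remaining Foxc1 gene, foxc1b, was near the limit of detection, with 6, 1 and 1 counts in MZsmad4a libraries and 9, 10 and 5 counts in WT libraries, and was not tested. Of the listed genes of paraxial and lateral mesoderm 10 were tested, and edgeR called 2 lower and none higher, DESeq2 5 lower. Their median log2 fold change was -0.67, with values between -2.49 and 2.06. The highest was that of mespba, a factor of somite formation that was not called, with 1.79, 2.43 and 1.05 CPM in MZsmad4a libraries, against 0.377, 0.573 and 0.273 CPM in WT libraries (edgeR adjusted p = 0.0647). The 2 that fell were tbx16l, a T-box factor of ventrolateral mesoderm, and eve1, a homeobox gene of the ventral margin. tbx16l was at 17.8 ± 2.82 CPM in MZsmad4a and 100.3 ± 9.34 CPM in WT (log2 fold change -2.49, edgeR adjusted p = 0.000445), and eve1 at 35.3 ± 5.26 and 122.7 ± 5.72 CPM (log2 fold change -1.80, edgeR adjusted p = 0.000686; SD, n = 3 each).

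foxh1, the forkhead gene through which Smad2 and Smad4 act on Nodal targets, is deposited by the mother and was among the highest of the family. It had 237, 292 and 309 CPM in MZsmad4a libraries, against 319.7, 347 and 344 CPM in WT libraries. All MZsmad4a libraries were below all WT libraries, and MZsmad4a replicate 1 was the lowest by a clear margin. The log2 fold change was -0.27 (SE 0.11, 95% interval -0.48 to -0.06, edgeR adjusted p = 0.247), so it was not called. Without MZsmad4a replicate 1 the log2 fold change was -0.17. In TPM the values were 119.6, 154 and 157 in MZsmad4a, against 188, 186 and 187 in WT, which were very close to each other. In all, 8 partners of Foxh1 were tested, such as smad2, the co-receptor tdgf1 and the maternal factors pou5f3, nanog and sox19b. edgeR called only smad4a itself, the mutated gene (log2 fold change -2.05, edgeR adjusted p = 0.000546). DESeq2 called 1 lower and 1 higher. With smad4a, 3 had an unadjusted p under 0.05, and the median over the 8 was -0.01. sox19b had 63.6, 49.9 and 44.8 CPM in MZsmad4a libraries, against 34.1, 37.0 and 27.3 CPM in WT libraries, without overlap (log2 fold change 0.69, edgeR adjusted p = 0.0861). Of 11 Nodal targets tested none was called by edgeR in either direction, with 4 at an unadjusted p under 0.05, while DESeq2 called 3 lower. Their median log2 fold change was -0.40 and single values ran between -0.99 and 0.70.

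Among the Foxa factors, foxa3 and foxa2 mark axial mesoderm and endoderm. foxa3 had 248, 259.6 and 291 CPM in MZsmad4a libraries, against 196, 279 and 271 CPM in WT libraries. The groups overlapped, and the lowest value was that of WT replicate 1, the shallowest library. The log2 fold change was 0.10 (95% interval -0.18 to 0.37, edgeR adjusted p = 0.781), and it was -0.04 without WT replicate 1, so no direction can be given. foxa2 had 20.3, 20.6 and 16.8 CPM in MZsmad4a libraries, against 25.8, 21.6 and 19.1 CPM in WT libraries, which overlapped (log2 fold change -0.20, 95% interval -0.53 to 0.13, edgeR adjusted p = 0.609). It was -0.072 without WT replicate 1 and -0.11 without MZsmad4a replicate 3. foxa1, a pioneer factor of endoderm and its organs in mammals, had no count in MZsmad4a libraries and 0, 2 and 1 counts in WT libraries. Of 12 listed symbols of axial mesoderm and endoderm, 10 were found and tested. None of the 10 was called by edgeR, with 6 at an unadjusted p under 0.05, while DESeq2 called 3 lower. They had a median log2 fold change of -0.47 and values between -2.19 and 0.31. The lowest was that of sox17, a gene of the endoderm lineage. It had 1.21, 3.76 and 2.84 CPM in MZsmad4a libraries, against 12.9, 10.4 and 12.4 CPM in WT libraries, without overlap (edgeR adjusted p = 0.0204). The highest was that of hhex (edgeR adjusted p = 0.580).

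The Foxd factors foxd5 and foxd3 were both a little lower in every MZsmad4a library. In Xenopus, FoxD5 holds neural ectoderm in an immature state. foxd5 had 78.9, 81.2 and 70.9 CPM in MZsmad4a libraries, against 91.4, 88.8 and 94.4 CPM in WT libraries (log2 fold change -0.25, SE 0.10, edgeR adjusted p = 0.232). foxd3 had 45.2, 43.1 and 43.8 CPM in MZsmad4a libraries, against 47.6, 55.5 and 49.2 CPM in WT libraries (log2 fold change -0.21, SE 0.11, edgeR adjusted p = 0.393). Neither gene overlapped between the genotypes, and neither passed the threshold. The upper end of their 95% intervals, -0.06 for foxd5 and 0.01 for foxd3, lay close to no change. These intervals use a normal approximation and are too narrow for 6 libraries.

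The Foxi factors act in ventral ectoderm, where they mark the progenitors of epidermal ionocytes and of the otic placode. The 2 zebrafish Foxi3 genes were barely detected at this stage. foxi3b had 6, 5 and 3 counts in MZsmad4a libraries, against 3, 3 and 0 counts in WT libraries, and foxi3a had none in any library, which allows up to 3 counts, or 0.158 to 0.173 CPM in MZsmad4a and 0.143 to 0.283 CPM in WT. These values set no direction. Among listed genes of ventral ectoderm 10 were tested, and edgeR called 3 lower and none higher, DESeq2 4 lower, with a median log2 fold change of -0.54. The 3 were gata2a, a factor of ventral ectoderm and blood, foxi1 and ved, a ventral homeobox repressor. ved was at 52.7 ± 16.4 CPM in MZsmad4a and 215 ± 24.5 CPM in WT (log2 fold change -2.03, edgeR adjusted p = 0.00475; SD, n = 3 each), gata2a at 41.3 ± 6.66 and 93.5 ± 12.2 CPM (-1.18, edgeR adjusted p = 0.00809), and foxi1 at 10.8 ± 2.38 and 40.9 ± 8.20 CPM (-1.92, edgeR adjusted p = 0.00523). Leaving out any 1 library left 0 or 1 of the ventral ectoderm genes called.

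The Foxp factors are repressors that act through dimers, known in mouse and chick from motor neurons, lung and lymphocytes. The 4 tested genes of the subfamily all had a lower mean in MZsmad4a, and none passed the threshold. Of all genes tested, 51% had a log2 fold change below 0. foxp1b had 0.519, 0.663 and 0.421 CPM in MZsmad4a libraries, against 1.51, 2.86 and 1.31 CPM in WT libraries. The groups did not overlap in CPM, and WT replicate 2 was the highest (log2 fold change -1.83, SE 0.44, edgeR adjusted p = 0.071). In TPM the groups overlapped, at 0.58, 0.72 and 0.28 in MZsmad4a and 0.72, 2.32 and 0.59 in WT. The gene has 9 annotated transcripts, and the mean transcript length that RSEM assigned to it was 1648, 1746 and 2618 bases in MZsmad4a libraries, against 4101, 2294 and 4050 bases in WT libraries.

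The other Foxp genes showed smaller differences. foxp1a had 11.8, 10.5 and 9.52 CPM in MZsmad4a libraries, against 13.5, 16.6 and 12.6 CPM in WT libraries (log2 fold change -0.43, SE 0.18, edgeR adjusted p = 0.267). foxp4 had 2.48, 2.21 and 1.47 CPM in MZsmad4a libraries, against 3.96, 2.77 and 2.62 CPM in WT libraries (log2 fold change -0.59, SE 0.32, edgeR adjusted p = 0.392). Both were lower in CPM in every MZsmad4a library than in any WT library. For foxp4 the gap to WT replicate 3 was small, and in TPM its groups overlapped. foxp2 had 7.62, 5.96 and 4.73 CPM in MZsmad4a libraries, against 9.34, 11.0 and 6.28 CPM in WT libraries. Its groups overlapped in CPM (log2 fold change -0.54, SE 0.27, edgeR adjusted p = 0.361).

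None of the forkhead genes tied to growth and cell cycle passed the threshold. foxm1, which in mammals drives genes of G2 and mitosis, had 47.9, 45.4 and 51.2 CPM in MZsmad4a libraries, against 43.7, 49.6 and 51.7 CPM in WT libraries. Its log2 fold change of -0.01 had a 95% interval of -0.23 to 0.22 (edgeR adjusted p = 0.991). Of 10 G2/M genes tested none was called by edgeR or DESeq2, 2 had an unadjusted p under 0.05, and the list had a median log2 fold change of -0.04 and values between -0.23 and 0.12. foxk1, which with FOXK2 restrains autophagy genes in mammals, had 50.3, 57.4 and 58.7 CPM in MZsmad4a libraries, against 58.1, 55.6 and 46.5 CPM in WT libraries, with overlap. FOXK2 (ENSDARG00000011609) had 69.2, 84.8 and 82.0 CPM in MZsmad4a libraries, against 95.3, 86.5 and 82.3 CPM in WT libraries, with overlap in CPM but not in TPM. FOXK2 (ENSDARG00000030583) had 37.6, 33.6 and 38.4 CPM in MZsmad4a libraries, against 31.5, 32.7 and 28.1 CPM in WT libraries, without overlap in CPM but with overlap in TPM. In this order the log2 fold changes were 0.06, -0.16 and 0.25, and their edgeR adjusted p-values were 0.865, 0.533 and 0.364.

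The Foxo factors are switched off by insulin signaling and turn on stress and metabolic genes. foxo3b had 60.2, 51.0 and 52.5 CPM in MZsmad4a libraries, against 44.6, 50.1 and 22.5 CPM in WT libraries. The groups did not overlap in CPM, by a narrow margin to WT replicate 2, but overlapped in TPM. WT replicate 3 was far below the others (log2 fold change 0.48, SE 0.27, edgeR adjusted p = 0.406). Without WT replicate 3, the lowest of the group, the log2 fold change was 0.20. Of 4 FoxO targets found by symbol, 3 could be tested, and edgeR called 1. The sestrin genes sesn1 and sesn3 had log2 fold changes of -0.14 and 0.43 and were not called (edgeR adjusted p = 0.831 and 0.166). The insulin receptor substrate irs2a, whose mammalian relative is a FoxO target, had no count in MZsmad4a libraries and 2.17, 5.69 and 4.84 CPM in WT libraries, at least 25.6-fold lower in MZsmad4a against a floor of 3 counts per library (edgeR adjusted p = 0.0078). Its expected counts were not whole numbers in 2 WT libraries, so some reads were shared out by estimation. It was not called when any of the 6 libraries was left out.

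The balance between duplicates was compared within each library, as the log2 ratio of the TPM of the copies after adding 0.1. Zebrafish kept many gene pairs from a genome duplication in the teleost ancestor. Of 6 pairs with both copies tested, 2 showed ratios that did not overlap between the genotypes. The share of such ratios among pairs of other genes was not computed, and the FOXK2 pair was added after seeing the data. The ratio of foxj1a to foxj1b was -3.05, -2.89 and -2.13 in MZsmad4a libraries, against 0.86, 1.35 and 0.93 in WT libraries, a difference of -3.74 (exact permutation test, p = 0.1, and 0.3 after Benjamini-Hochberg adjustment over 6 pairs). The ratio of FOXK2 (ENSDARG00000011609) to FOXK2 (ENSDARG00000030583) was -0.26, 0.44 and 0.17 in MZsmad4a libraries, against 0.62, 0.64 and 0.73 in WT libraries, a difference of -0.54 (exact permutation test, p = 0.1, adjusted 0.3). Both p-values are the smallest that 3 against 3 libraries allow, so no pair could pass. The foxo3, foxp1, FOXB1 and FOXN2 pairs overlapped between genotypes, with differences of -0.32, 0.34, 0.45 and -0.12. Without MZsmad4a replicate 3 the difference was 0.095 for FOXB1 and -0.0076 for FOXN2.

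**Figure D4:**
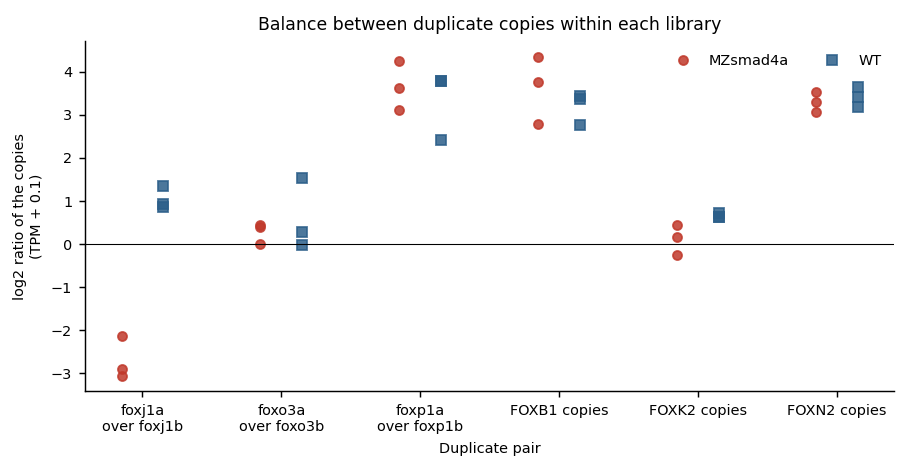
Log2 ratio of the TPM of duplicate copies (TPM + 0.1) within each library for 6 forkhead pairs, MZsmad4a (circles) left of WT (squares). For pairs under one name the ratio is of the identifier with the higher mean TPM to the other. The ratio of foxj1a to foxj1b lies below 0 in the 3 MZsmad4a libraries and above 0 in the 3 WT libraries.

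**Figure D5:**
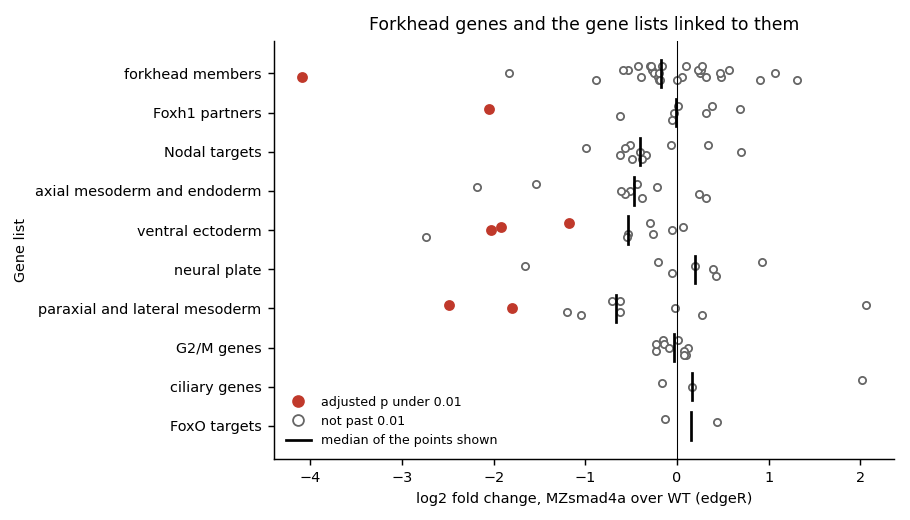
Log2 fold change of MZsmad4a over WT (edgeR) for the 30 forkhead genes and for the genes of 9 lists linked to them, 1 point per gene, with a bar at the median of the points shown. Red points passed an adjusted p of 0.01, and irs2a, with no count in MZsmad4a, is left out of the FoxO list because its fitted fold change depends on the prior count. The ventral ectoderm list holds 3 red points and the paraxial and lateral mesoderm list 2, all below 0, beside foxj1a among the forkhead genes.

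Across the 9 lists, edgeR called 7 of 68 genes lower and none higher, where the backgrounds were 0.490% and 0.223%. At an unadjusted p under 0.05 there were 34, against 17.5% of all genes. The 7 include smad4a, the mutated gene, and the paper already reported eve1, foxi1 and gata2 as lower in MZsmad4a. The lists were chosen with earlier results known, so these shares do not measure an enrichment. DESeq2 called 17 of the 68 lower and 3 higher, against 339 lower and 309 higher of all 15720 genes. The lists share some genes, since tbxta, noto, gsc and mixl1 each stand in 2 of them. The summed CPM of the Nodal targets was 1224 to 1563 in MZsmad4a and 1799 to 2181 in WT. Most of it came from fscn1a and tbxta, and without these the sums overlapped, at 144 to 249.5 CPM in MZsmad4a and 224 to 303 CPM in WT. The summed CPM of the ventral ectoderm genes was 638 to 698 in MZsmad4a and 1017 to 1055 in WT. For the G2/M genes the sums overlapped, at 2518 to 2915 in MZsmad4a and 2777 to 2812 in WT. Markers of other cells of the embryo were summed likewise, with none called at 0.01 by edgeR, 2 at an unadjusted p under 0.05 and 1 called by DESeq2. Those of the yolk syncytial layer gave 445 to 592 CPM in MZsmad4a and 387 to 549 CPM in WT, those of germ cells 309 to 353 and 249.7 to 319.8 CPM, and those of oocytes 45.4 to 54.2 and 50.2 to 60.1 CPM. Among them mxtx2, a regulator of the yolk syncytial layer, had 0.115, 0.331 and 0.473 CPM in MZsmad4a libraries, against 1.41, 3.15 and 2.29 CPM in WT libraries, without overlap (log2 fold change -2.88, edgeR adjusted p = 0.0286). Their part in the forkhead values was not tested.

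The forkhead genes without a count in any library were foxb2, foxe1, foxf1, foxi3a, foxn4, foxq2, FOXL2 (ENSDARG00000042180) and FOXQ1 (ENSDARG00000030896). A further 13 had fewer than 10 counts over the 6 libraries together. No untested gene exceeded 1.56 TPM in any library. Of the 30 tested, the 19 whose genotypes overlapped in CPM had log2 fold changes between -0.88 and 1.07, with a median SE of 0.27.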

How the data were processed

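Bulk RNA-seq of 6 libraries, 3 MZsmad4a and 3 WT, was analysed. The authors removed adapters with cutadapt, aligned paired-end reads to GRCz11 (Ensembl release 95) with STAR and quantified genes with RSEM, as the paper's methods state. The submitters' processing notes also name bcl2fastq 2.20.0. The authors deposited RSEM's expected count, which is not normalized. They also deposited TPM and FPKM values per gene; the deposited FPKM values were not used.

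After rounding, expected counts went into the quasi-likelihood test of edgeR 4.0.16 (R 4.3.3, low counts removed by filterByExpr, TMM scaling, Benjamini-Hochberg adjustment over 15720 genes, threshold 0.01). DESeq2 1.42.0 and limma 3.58.1 served as alternatives, and Python 3.11.15 with scipy 1.17.1 for exact permutation tests. Tested on simulated data with 200 of 15720 genes changed, edgeR made 125 calls, all 125 of changed genes. DESeq2 made 171 calls, of which 158 were right. In this simulation it thus made more false calls than edgeR, but found more of the changed genes. How many of its calls in the real data are false was not tested. The changed genes were drawn from genes with a higher mean count than foxj1a. A floor of 3 counts was 0.143 to 0.283 CPM. Floors cover counting error only.

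Members, lists and tests were chosen with earlier results of these data known. Genes named were the tested forkhead genes with an adjusted p under 0.05 or no overlap, the 10 with the highest mean TPM, a list of 15 symbols of known roles, and list genes with an adjusted p under 0.01. A gene that this rule names is not reported here. foxj1b, six3b, otx2a, mespba, sox19b, sox17, hhex, sesn1, sesn3, mxtx2 and others outside that rule were named after their values were seen. The FOXB1, FOXK2 and FOXN2 pairs, the floor for irs2a and the Nodal target sum without fscn1a and tbxta were added after seeing the data. Symbols came from a table that named 26433 of 32266 identifiers, and 34 more from the study's own table, which names foxj1a. Several lists are therefore partial. The symbols found were 8 of 13 for neural plate, 11 of 13 for ventral ectoderm and 10 of 12 for axial mesoderm and endoderm. They were 8 of 11 for Foxh1 partners, 10 of 11 for G2/M genes, 7 of 8 for ciliary genes and 4 of 11 for FoxO targets.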

Additional observations from a re-analysis of the deposited data

How the results depend on the processing

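Alternatives were DESeq2, RLE scaling, no filter on low counts, limma on log2(TPM + 1) and log2(TPM + 0.1), a replicate block, an adjusted p under 0.05 and leaving out each library in turn. The count of all genes called, 112, was 648 with DESeq2, 283 without the filter, 29 with the replicate block, 461 at an adjusted p under 0.05, and 24 to 70 with a library left out. The forkhead genes called lower numbered 0 with the replicate block, where foxj1a was at -4.09 on the log2 scale, with an adjusted p of 0.0102 from edgeR. Those called higher numbered 2 with DESeq2 (FOXB1 ENSDARG00000089042 and FOXC1), 1 without the filter and 1 at an adjusted p under 0.05. The 7 genes called in the linked lists were 20 with DESeq2, 3 with the replicate block, 14 at an adjusted p under 0.05, and 3 to 4 with a library left out. To look for pairing, each gene's log2 CPM was taken as its deviation from the genotype mean. These deviations correlated at 0.108, -0.032 and 0.14 between same-numbered libraries of the 2 genotypes. For libraries of unlike number the correlations ran between -0.201 and 0.082. These values do not settle whether the replicate numbers pair the libraries.

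The summed forkhead TPM difference became +6.75 as TMM-scaled CPM. With a library left out, the foxo3 pair difference ran between -0.63 and 0.15 (above 0 without WT replicate 3) and that of foxp1 between -0.11 and 0.62 (below 0 without WT replicate 2), and with TPM + 1 that of foxp1 was -0.043. The log2 fold change ran between -0.041 and 0.19 for foxa3 (below 0 without WT replicate 1), between -0.037 and 0.13 for foxk1 (below 0 without WT replicate 3), and between -0.066 and 0.044 for foxm1 (above 0 without MZsmad4a replicate 2 or without WT replicate 2 or 3). foxk1 was at -0.052 and -0.053 by limma with pseudocounts of 1 and 0.1, and foxm1 at 0.011 without the filter. The causes were not tested. limma on log2(TPM + 0.1) moved the median of all genes to -0.11. With a library left out, the FOXB1 pair difference ran between 0.095 and 0.88, that of FOXN2 between -0.24 and -0.0076 and that of FOXK2 between -0.70 and -0.36, and the log2 fold change between -0.24 and -0.14 for foxd3, between -0.22 and -0.077 for FOXK2 (ENSDARG00000011609) and between -0.75 and -0.39 for foxp4. Of 455 values of single genes or lists 413, and of 134 values of main results 107, kept their direction and call or, where they are counts, stayed within 1.5 times. Many of these could hardly move, since they are list counts that were 0 in the main fit. The setting of an adjusted p under 0.05 reuses the main fit, so its directions were fixed. These shares are therefore no measure of robustness. WT replicate 1, with the fewest counts, limits what can be seen of genes near 3 counts.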

Other observations

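In RefSeq's order of genes on the assembly GRCz12tu, foxc1a, foxf2a and foxq1a lie in one stretch, with ftr93 between the first of them and the next, and foxq1b, foxf2b and foxc1b lie side by side in another. The genes of these stretches, chosen after their values were seen, did not share a pattern. FOXC1 (ENSDARG00000091481), which carries no copy letter in the table of symbols, was at 48.9 to 61.7 CPM in MZsmad4a and 35.6 to 40.2 CPM in WT. foxf2a was at 0.808, 1.99 and 2.05 CPM in MZsmad4a libraries, against 0.566, 0.716 and 1.26 CPM in WT libraries, which overlapped (log2 fold change 0.90, edgeR adjusted p = 0.386). FOXQ1 (ENSDARG00000030896) had no count in any library.

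In the other stretch, foxq1b overlapped between the genotypes, at 1.04, 1.49 and 1.58 CPM in MZsmad4a libraries, against 1.51, 1.72 and 1.75 CPM in WT libraries. foxf2b had 4, 5 and 3 counts in MZsmad4a libraries and 0, 2 and 1 counts in WT libraries, and foxc1b had 6, 1 and 1 counts in MZsmad4a libraries and 9, 10 and 5 counts in WT libraries. Both rest on at most 10 counts per library and were not tested. MZsmad4a replicate 1 had the lowest foxh1 of the 6 libraries and the highest value of both FOXB1 genes and of FOXC1.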
